A study of Homo sapiens with 9 samples.

Results

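The genes described here encode the chaperonins, the barrel-shaped protein-folding machines of the cell, in A375R, human melanoma cells derived from A375 that resist PLX4032, an analogue of vemurafenib. Members were taken by gene name, and all 10 were found among the 62710 genes of the deposited table: TCP1, CCT2, CCT3, CCT4, CCT5, CCT6A, CCT7 and CCT8 of the cytosolic CCT ring, and HSPD1 and HSPE1, which encode HSP60 and HSP10 of mitochondria. Poly(A) RNA was sequenced from cells given DMSO, the solvent, from cells given 10 µM VHL-r for 2 h, and from cells given 10 µM R4VPL3-1 for 2 h, with 3 libraries per treatment. R4VPL3-1 is the full PROTAC-like molecule directed at the ubiquitin ligase RNF4, and VHL-r consists of the moiety that recruits VHL and nothing else of it, so the pair of compounds was compared at the same dose and time. The sample titles call the control libraries wild type and give no dose or time, the column names of control libraries 2 and 3 add a time of 2 h, and the methods name DMSO as the control. The line was maintained in 2 µM PLX4032 according to the methods, which applies to all 3 treatments. The methods describe the libraries of a treatment as independent biological repeats. In bulk RNA of this kind, fewer cells of a type and less RNA per cell cannot be told apart.

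A chaperonin is a pair of stacked rings that encloses an unfolded protein and lets it fold in a closed chamber, driven by ATP. The CCT ring, also called TRiC, is built of 8 different but related subunits, each from its own gene, and actin and tubulin are its best known clients. It receives clients from prefoldin, a jellyfish-shaped holding chaperone. The VHL protein, the ubiquitin ligase component that VHL-r binds, is also a classical client of CCT. HSP60 forms rings of 1 subunit type in the mitochondrial matrix and uses HSP10 as the lid of its chamber. HSPD1 and HSPE1 lie head to head on chromosome 2 and share the region between their starts. HSP60 is known as a target of the heat shock response, in which the factor HSF1 binds alternating GAA and TTC units in promoters.

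Of the 10 genes, HSPD1 was the one that was called. It rose by 17.9% with R4VPL3-1 against DMSO and by 18.2% against VHL-r, and it was not called with VHL-r alone. No CCT gene was called in any of the 3 comparisons. TCP1 and CCT4 lay 7.63% and 6.65% higher with R4VPL3-1 than with DMSO, just outside the threshold. HSPE1 was counted at 41.32 to 67.6 normalized counts only, against 36652 to 46766 for HSPD1.

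The letters upstream of HSPD1 and TCP1 are shown because the regions searched for these genes held the only matches to the heat shock element among the members. A window of 250 bases before the start of transcription was available for 9 of the 10 genes from RefSeq (build GRCh38.p14), and CCT6A had no entry. The letters searched were GAANNTTC and TTCNNGAA, which read the same on both strands and overlap each other in longer runs, and 3 alternating units separated by 2 bases. GAANNTTC was found in 5.78% of the 35116 promoter windows, TTCNNGAA in 6.62%, either of them in 11.6%, and 3 alternating units in 0.441%. Capitals mark the GAA and TTC units, and each sequence is given 5′ to 3′ on the strand of the gene, which is the minus strand for both.
HSPD1 (chr2:197500061-197500090): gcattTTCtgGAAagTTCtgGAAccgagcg
TCP1 (chr6:159789815-159789844): tcgtttgaggcGAAggTTCaacctcttccc
The HSPD1 run is an unbroken series of 18 bases that begins 245 bases before the canonical start, and it lies in the 539 bases between the starts of HSPD1 and HSPE1. It holds 3 overlapping matches to the pairs of units and 2 to the series of 3 units. The TCP1 match is a single pair of units that begins 231 bases before the start. No match stood in the windows of CCT2, CCT3, CCT4, CCT5, CCT7, CCT8 or HSPE1, and the CCT5 window was placed 257 bases from the canonical start. The HSPE1 window, chr2:197500129-197500378, does not reach the HSPD1 run, so the absence there follows from the window length. Annotated alternative first exons of HSPD1 and TCP1 reach into these windows, and the annotated extents of the other genes searched reach into or past theirs.

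HSPD1 (ENSG00000144381, chromosome 2 from 197486584 to 197516737, minus strand, GRCh38) had the highest level per kilobase of canonical transcript of the 10 genes. Its normalized counts, which are reads per gene divided by a size factor for each library, were 38046, 38490 and 36652 in the DMSO libraries 1, 2 and 3. The VHL-r libraries held 38289, 37352 and 37268 normalized counts of HSPD1. With R4VPL3-1 the values were 46766, 43910 and 42805. All R4VPL3-1 libraries lay above all others, and the DMSO and VHL-r libraries overlapped. The share of all tested genes whose groups separate was not determined, so separation has no background here or for the genes below.

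Differences were tested with limma on log2(normalized count + 1), in 1 model of the 3 treatments that used every library. The model covered 15230 genes whose mean reached 10, and a gene was called where its adjusted p (Benjamini-Hochberg) did not exceed 0.05. For R4VPL3-1 against DMSO, the log2 fold change of HSPD1 was 0.24 (95% interval 0.15 to 0.32, standard error 0.042, limma adjusted p = 0.000215). Against VHL-r it was also 0.24 (0.15 to 0.33, limma adjusted p = 0.0016). These intervals correspond to rises of 10.9% to 25.2% and of 11.2% to 25.5%. VHL-r against DMSO gave a difference of -0.246% in HSPD1, with an interval from -6.11% to 6.01% (limma adjusted p = 0.972). Both R4VPL3-1 comparisons stayed called under each of the 20 alternative settings, and the log2 fold change ranged from 0.20 to 0.26 against DMSO and from 0.20 to 0.27 against VHL-r.

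The members' calls are set beside those of the whole table. With VHL-r against DMSO, none of the 10 was called higher and none lower, where 10.3% of all tested genes were called higher and 9.51% lower. By limma, none of the 10 had an unadjusted p of at most 0.05 in that comparison, and edgeR and DESeq2 on the recovered reads called none either. With R4VPL3-1 against DMSO, 1 of the 10 was called higher (HSPD1) and none lower, and the shares of all genes were 13.1% higher and 11.8% lower. With R4VPL3-1 against VHL-r, the same single gene was called higher and none lower, where 1.14% of all genes were called higher and 0.729% lower. HSPD1, TCP1 and CCT4 had an unadjusted p of at most 0.05 in limma in both R4VPL3-1 comparisons. The shares of all genes given here are for adjusted p. The share at the unadjusted threshold was not determined, so the counts by unadjusted p have no background beside them. Both comparisons share the R4VPL3-1 libraries. For R4VPL3-1 against DMSO, edgeR and DESeq2 each called 3 members higher, HSPD1, TCP1 and CCT4. Of the 15230 genes tested, edgeR called 2127 higher in that comparison and DESeq2 1861. Neither called a member lower in any comparison.

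The CCT subunits fall into those that bind and hydrolyse ATP strongly, TCP1, CCT2, CCT4 and CCT5, and those on the other side of the ring, CCT3, CCT6A, CCT7 and CCT8. TCP1 (ENSG00000120438, chromosome 6 from 159778498 to 159789703), the alpha subunit, was at 17063, 16807 and 16528 normalized counts with DMSO. The VHL-r libraries gave 17060, 16674 and 16861 for TCP1, and the R4VPL3-1 libraries 18513, 18275 and 17456. The R4VPL3-1 libraries therefore lay above all 6 others, by a smaller distance than for HSPD1. The log2 fold change of TCP1 was 0.11 against DMSO (0.02 to 0.19, limma adjusted p = 0.053) and 0.10 against VHL-r (0.02 to 0.18, limma adjusted p = 0.324). The call of TCP1 against DMSO depended on the setting, since 9 of the 20 alternatives called it, with adjusted p from 0.0186 to 0.197.

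CCT4 (ENSG00000115484, chromosome 2 from 61868085 to 61888671), the delta subunit, was at 17267, 17582 and 17020 normalized counts with DMSO. It was at 17457, 17478 and 17416 with VHL-r, and at 18275, 18458 and 18586 with R4VPL3-1. As with TCP1, the R4VPL3-1 libraries did not overlap with either group, which is a description without a background over all genes. The log2 fold change of CCT4 against DMSO was 0.09 (0.02 to 0.17, limma adjusted p = 0.0746), and 4 of the 20 alternatives called it. Against VHL-r it was 0.08 (limma adjusted p = 0.483), and none did.

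CCT2, the beta subunit, was at 20146, 20616 and 19634 normalized counts with DMSO, at 20532, 20533 and 19852 with VHL-r, and at 20018, 20407 and 20895 with R4VPL3-1. The 3 groups of CCT2 overlapped. CCT5, the epsilon subunit, had the highest raw level of the ring, at 31146, 30740 and 30274 with DMSO, 29466, 29849 and 29996 with VHL-r, and 29186, 30706 and 29778 with R4VPL3-1. The VHL-r libraries of CCT5 lay below the DMSO libraries, with a difference of -3.09% that was not called (limma adjusted p = 0.475).

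On the other side of the ring, CCT3, the gamma subunit, was at 27889, 27541 and 26490 normalized counts with DMSO, 27515, 27905 and 28109 with VHL-r, and 28130, 28786 and 28003 with R4VPL3-1. CCT6A, the zeta subunit, was at 22520, 22292 and 21353 with DMSO, 22899, 22417 and 21702 with VHL-r, and 22967, 22928 and 23285 with R4VPL3-1. In both genes the R4VPL3-1 libraries lay above the DMSO libraries, by 3.66% and 4.56% on average, without a call (limma adjusted p = 0.365 and 0.259). Without DMSO replicate 3 the log2 fold change went from 0.05 to 0.03 for CCT3 and from 0.06 to 0.04 for CCT6A. CCT7, the eta subunit, was at 22312, 21970 and 21667 with DMSO, 20899, 21478 and 23070 with VHL-r, and 21306, 22623 and 22186 with R4VPL3-1. CCT8, the theta subunit, was at 11481, 11905 and 11103 with DMSO, 11323, 11255 and 11122 with VHL-r, and 11338, 11524 and 11620 with R4VPL3-1. The R4VPL3-1 and DMSO libraries of CCT7 and of CCT8 overlapped, and the percent difference was 0.25% for CCT7 and -0.0166% for CCT8.

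Over the 8 CCT genes, the coefficient of variation within a treatment was between 0.18% and 5.15%, so the intervals were narrow. The 95% intervals of all 8 genes lay within -8.31% to 7.81% for VHL-r against DMSO, within -7.95% to 13.8% for R4VPL3-1 against DMSO, and within -5.02% to 13.4% for R4VPL3-1 against VHL-r. These bounds do not show that the genes stayed equal. The median log2 fold change of the 8 genes was 0.01, 0.04 and 0.03 in the 3 comparisons, and the median of all genes tested was -0.0045, -0.0063 and -0.0056. Summed over the ring, the normalized counts were 167782 ± 3220 (SD, n = 3) with DMSO, 167622 ± 489.1 (SD, n = 3) with VHL-r and 171751 ± 1988 (SD, n = 3) with R4VPL3-1. The sum was 2.37% higher with R4VPL3-1 than with DMSO, and 1.24% higher without DMSO replicate 3. HSPD1 came to between 22.2% and 22.9% of the CCT sum in the DMSO and VHL-r libraries, and to 27.6%, 25.3% and 24.9% in the R4VPL3-1 libraries, so the groups did not overlap in this ratio.

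The CCT protein complex holds 1 copy of each subunit per ring, but the RNA levels of the 8 genes were not equal. Normalized counts per kilobase of the canonical transcript were highest for CCT3, at 13810 ± 368 (SD, n = 3) with DMSO. CCT7 followed at 11900, CCT2 at 10510, CCT5 at 9329 and CCT6A at 8535 per kilobase. CCT4 stood at 7277, TCP1 at 7143 and CCT8 at 6201 per kilobase. The places of CCT3, CCT7, CCT2 and CCT8 were the same in all 9 libraries. CCT5 and CCT6A exchanged the places 4 and 5 between libraries, and so did CCT4 and TCP1 the places 6 and 7, so these neighbours did not separate beyond their spread. CCT3 was 2.17 to 2.37 times CCT8 per kilobase, depending on the library. HSPD1, at 16810 ± 427 (SD, n = 3) per kilobase with DMSO and 19820 ± 911 (SD, n = 3) with R4VPL3-1, stood above CCT3 in every library, by 1.17 to 1.46 times. The order depends on the length used. With the length of all annotated exons joined, CCT3 remained the highest at 7067 per kilobase, CCT4 came next at 6401, and HSPD1 stood at 4946.

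HSPE1 (ENSG00000115541, chromosome 2 from 197500140 to 197503449, plus strand) encodes the lid of HSP60, and its count stood far from that of its partner. Its normalized counts were 58.12, 41.32 and 51.72 with DMSO, 56.04, 54.62 and 67.6 with VHL-r, and 51.36, 51.73 and 50.32 with R4VPL3-1. These values rest on 42 to 66 reads per library, where counting error alone is 15.4% to 12.3%. Per kilobase of canonical transcript, HSPD1 was 186 times HSPE1 with DMSO.

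No comparison of HSPE1 passed the test. The log2 fold change was 0.03 for R4VPL3-1 against DMSO, with an interval from -0.35 to 0.42 (limma adjusted p = 0.924). For R4VPL3-1 against VHL-r it was -0.21 (-0.60 to 0.18, limma adjusted p = 0.844), and for VHL-r against DMSO it was 0.24 (-0.15 to 0.63, limma adjusted p = 0.429). The last value was 0.11 without DMSO replicate 2 and 0.15 without VHL-r replicate 3, and the one against VHL-r was -0.11 without VHL-r replicate 3. The HSPD1 rise of 0.24 against DMSO was therefore within the interval of HSPE1 in that comparison. Against VHL-r the HSPE1 interval ended at 0.18, below the HSPD1 value of 0.24 but inside the HSPD1 interval of 0.15 to 0.33. A difference of 0.24 in HSPE1 was not detectable at this depth.

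Part of the HSPE1 sequence cannot be assigned to it alone. Of the 557 bases of its canonical transcript, 192 (34.5%) lie on exons that the readthrough gene HSPE1-MOB4 has on the same strand, and 365 do not. Of its 100-base windows, 11.6% occur exactly elsewhere in the genome and 32.1% with at most 1 mismatch. In HSPD1, 12.3% of windows occur exactly elsewhere and 31.3% within 1 mismatch. Why HSPE1 was counted at so few reads was not tested, and its value is not taken here as the level of HSP10 RNA. For the CCT genes, at most 0.342% of windows occur exactly elsewhere, in CCT8, and 7.12% of the CCT8 windows do so within 1 mismatch. The table holds 60 rows named as pseudogenes or readthrough genes of the members, of which 24 were above 0 in any library and 3 had a mean of at least 10. The highest was HSPD1P1, a processed pseudogene, with a mean of 21.7 normalized counts.

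Several members share a start region with a gene on the opposite strand, and these neighbours were read from the same fit. MRPL18, a protein of the large mitochondrial ribosome subunit, starts 865 bases from TCP1. Its normalized counts were 2413, 2424 and 2163 with DMSO, 2404, 2318 and 2491 with VHL-r, and 3418, 3250 and 3000 with R4VPL3-1. The R4VPL3-1 libraries of MRPL18 lay above all others. Its log2 fold change was 0.47 against DMSO (0.35 to 0.58, limma adjusted p = 2.58e-06) and 0.42 against VHL-r (0.30 to 0.54, limma adjusted p = 8.75e-05), while its interval for VHL-r against DMSO ran from -0.07 to 0.16. The TCP1 intervals given above, up to 0.19 and 0.18, end below those of MRPL18 in the same comparisons.

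The tested neighbours of the other CCT genes were not called in any comparison. Beside the calls of the neighbours, MRPL18 included, 10.3% of all tested genes were called higher and 9.51% lower with VHL-r against DMSO. For R4VPL3-1 the shares were 13.1% and 11.8% against DMSO, and 1.14% and 0.729% against VHL-r. PSPH, an enzyme of serine synthesis 321 bases from CCT6A, had a log2 fold change of 0.17 against DMSO (limma adjusted p = 0.0851). ATPSCKMT, 392 bases from CCT5, was at 294 ± 32.9 (SD, n = 3) with DMSO and 266 ± 21.8 (SD, n = 3) with R4VPL3-1. TSACC, 234 bases from CCT3, was at about 20 normalized counts in each treatment. Its interval for R4VPL3-1 against DMSO was wide, from -0.75 to 0.59. The microRNA gene MIR3913-1, 636 bases from CCT2, was listed at 0 and was not tested. HSPE1-MOB4, which starts 573 bases from HSPD1, was at 7.26, 11.81 and 4.06 with DMSO. It was at 14.01, 13.66 and 14.34 with VHL-r and at 14.94, 24.87 and 18.2 with R4VPL3-1. The log2 fold change for R4VPL3-1 against DMSO was 1.30 (limma adjusted p = 0.0117), a call that rests on low counts. The DMSO mean of HSPE1-MOB4, 7.71, was below the filter of 10. Its mean over all libraries, 13.68, passed only through the higher compound libraries. VHL-r against DMSO gave 0.89 (limma adjusted p = 0.098) and R4VPL3-1 against VHL-r 0.41 (limma adjusted p = 0.838), both without a call. HSPE1-MOB4 shares exon bases with HSPE1 as described. By canonical starts, CCT4, CCT7 and CCT8 had no such neighbour within 1000 bases.

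The mitochondrial HSP70 machinery hands imported proteins to HSP60. Of its 7 listed genes, all tested, 2 were called higher and none lower with R4VPL3-1 against DMSO, beside 13.1% and 11.8% of all genes, and none in the other comparisons. Both called genes encode nucleotide exchange factors of mitochondrial HSP70. GRPEL2 went from 1417 ± 27.7 (SD, n = 3) normalized counts with DMSO to 1760 ± 54.4 (SD, n = 3), and its log2 difference was 0.31 (limma adjusted p = 0.000123). Against VHL-r it lay 0.20 higher on the log2 scale, outside the threshold (limma adjusted p = 0.0552). GRPEL1 rose by 11.3% against DMSO (log2 fold change 0.15, limma adjusted p = 0.00907). HSPA9, the mitochondrial HSP70 itself, was at 19600 ± 154 (SD, n = 3) with DMSO and 19890 ± 313 (SD, n = 3) with R4VPL3-1 (limma adjusted p = 0.735), and its partner DNAJA3 was not called (limma adjusted p = 0.839).

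Of 10 genes of mitochondrial protein import, TIMM44, which tethers HSP70 to the import channel, was called higher with R4VPL3-1 against DMSO (log2 fold change 0.18, limma adjusted p = 0.0226). TOMM20, an import receptor of the outer membrane, was called lower with both compounds against the shared DMSO libraries, with differences of -8.93% for R4VPL3-1 and -8.19% for VHL-r. The other 8 genes were not called. Of 8 mitochondrial proteases and disaggregases, HTRA2 was lower with VHL-r against DMSO (log2 fold change -0.20, limma adjusted p = 0.0317), and none was called in the R4VPL3-1 comparisons. Beside both lists, 13.1% of all tested genes were called higher and 11.8% lower with R4VPL3-1 against DMSO. With VHL-r against DMSO the shares were 10.3% and 9.51%, and with R4VPL3-1 against VHL-r 1.14% and 0.729%.

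The genes that bring clients to CCT were called in no comparison. Of 9 prefoldin and prefoldin-like genes, 8 were tested and none was called. The fold changes of PFDN2 and VBP1, both prefoldin subunits, were between -0.03 and 0.03 on the log2 scale over the 3 comparisons. PFDN5 was below the filter, with a mean of 1.34 normalized counts with DMSO, and was listed at 0 with both compounds. PFDN2 and VBP1 of the same complex had means of 5206 and 2938 over all libraries. Why PFDN5 was counted at so few reads was not tested, and its value is not taken here as its RNA level. None of the 5 phosducin-like cofactors was called, PDCL3 among them, and none of the 5 tested tubulin cofactors. Of all tested genes, 10.3% were called higher and 9.51% lower with VHL-r against DMSO. For R4VPL3-1 the shares were 13.1% and 11.8% against DMSO, and 1.14% and 0.729% against VHL-r.

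Among 24 tested clients of CCT, calls went in both directions. With R4VPL3-1 against DMSO, 1 was higher and 3 were lower, where 13.1% and 11.8% of all genes were called higher and lower, so the counts do not set the clients apart. CCNE1, cyclin E1, was higher by 20.8% (log2 fold change 0.27, limma adjusted p = 0.00709). RPTOR and MLST8, which encode subunits of the mTOR complex, were lower (log2 fold change -0.22 and -0.16, limma adjusted p = 0.00302 and 0.0317). TUBB, a beta tubulin named after its value was seen, was the other one called lower, with a difference of -9.18% (limma adjusted p = 0.0261). With VHL-r against DMSO, 2 were higher and 3 lower, beside 10.3% and 9.51% of all genes, with TUBB2A (0.23) and TUBB4B (0.22), both beta tubulins, as the higher ones and FZR1 (-0.28), an activator of the anaphase-promoting complex, RPTOR (-0.15) and MLST8 (-0.16) as the lower ones. None of the 24 was called for R4VPL3-1 against VHL-r. VHL itself was at 1702 ± 152 (SD, n = 3) with DMSO, 1761 ± 31.8 (SD, n = 3) with VHL-r and 1731 ± 72.5 (SD, n = 3) with R4VPL3-1, and it was not called.

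Of 4 tested genes related in sequence to CCT subunits, 2 were called lower with both compounds against DMSO, BBS10 and BBS12. Both help assemble a complex of the primary cilium. Of all tested genes, 9.51% were called lower with VHL-r and 11.8% with R4VPL3-1, each against DMSO. BBS12 was at 165 ± 11.5 (SD, n = 3) with DMSO, 99.1 ± 2.48 (SD, n = 3) with VHL-r and 73.9 ± 11.4 (SD, n = 3) with R4VPL3-1 (limma adjusted p = 0.000765 and 2.83e-06 against DMSO). BBS10 differed from DMSO by -0.32 with VHL-r and -0.34 with R4VPL3-1 on the log2 scale. Both comparisons share the DMSO libraries. MKKS, the third gene of this kind, and CCT6B, a close relative of CCT6A, were not called.

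As a reference for the heat shock response, 9 heat shock genes were listed. Of these, 9 were called higher with R4VPL3-1 against DMSO, 8 against VHL-r, and 4 with VHL-r against DMSO. The shares of all tested genes called higher were 13.1%, 1.14% and 10.3% in the same order. The list was chosen with earlier results of these data known, so its counts are a description. Within this list HSPA1B, HSPA1A and DNAJB1 differed most, and their log2 fold changes against VHL-r were 4.02, 4.03 and 2.20. HSPA1A and HSPA1B are near-identical copies, so their separate values are uncertain. The change of HSPD1 against VHL-r, 0.24, stood between that of HSP90AA1, 0.36, and that of HSP90AB1, 0.15, which was not called (limma adjusted p = 0.0727). The 5 tested genes whose log2 values followed HSPD1 most closely over the 9 libraries were ZFAND2A (Pearson r = 0.98), HSP90AA1 (0.979), MRPL18 (0.978), HMOX1 (0.973) and HSPH1 (0.972). For the mean of the 8 CCT genes they were LRP2BP (0.948), RPA2 (0.926), PKD1P4 (0.907), DMTN (0.897) and BEND7 (0.89). The libraries of a treatment share its level in each gene, and the genes were picked as the highest of all tested genes over 9 libraries, so these values are descriptions. How high such values reach among unrelated genes was not determined.

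The libraries held 26435568 to 32085626 recovered reads, with a median of 28165279, and 10714 to 34299 reads for each CCT gene. The melanocyte regulators SOX10 (7900 to 17935 normalized counts) and MITF (893 to 1994) were counted in all libraries, as were DCT (914 to 1782), S100B (584 to 772) and PMEL (20.9 to 36.8), while MLANA was listed at 0 and TYR reached 2.14. PTPRC and CD3E of leukocytes stayed at or below 11.8, EPCAM and CDH1 of epithelium at or below 9.13, KRT5 at or below 24.2, and PECAM1 and VWF of endothelium at or below 10.1 and 21.0. KRT14 (224 to 365), COL1A1 (729 to 1635), PDGFRB (156 to 247) and DCN (68.9 to 163) were counted in all libraries.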

How the data were processed

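A375R cells were profiled by RNA-seq in 3 treatments with 3 libraries each. Per the methods, single reads of 100 bases from a directional kit were aligned to GRCh38 by STAR and counted per gene by htseq-count in reverse mode, so strand was used. The authors deposited a normalized signal, the count of each gene divided by a DESeq2 (version 1.36.0) size factor for each library, with 2 decimals. Whole reads were recovered from it, and 100% of the values below 5000 were whole within 0.0051 normalized counts.

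The test was limma 3.58.1 (R 4.3.3) with trend on log2(value + 1), without a block, over all 9 libraries and 15230 genes whose mean reached 10. Fold changes on this scale understate those of low genes. Adjusted p-values are Benjamini-Hochberg over all tested genes, two-sided, with a threshold of 0.05. An exact permutation test of 3 against 3 cannot give a p below 0.1. The fit was tested on simulated data.

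Alternatives were pseudocounts of 0.1 and 5, no filter, a mean of at least 50, TMM and upper-quartile scaling, a block for the replicate number, robust fitting in limma, edgeR 4.0.16 and DESeq2 1.42.0 (both run on recovered reads), only the 6 libraries compared, each library left out, and an adjusted p of at most 0.01. Transcript lengths, overlaps and neighbours came from GENCODE 44, which matched 62639 of 62710 genes, and repeated windows from blastn 2.17.0. Where a symbol has several rows, the one with the highest mean was used. Named were all members, up to 3 called genes with the largest change per list and comparison, direct partners, neighbours, and the 5 genes of nearest pattern. Members and lists were chosen with earlier results of these data known. The authors' own comparisons were not used, and 1 listed marker gene is not reported here.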

Additional observations from a re-analysis of the deposited data

How the results depend on the processing

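Under the alternatives, 561 log2 fold changes of members kept their direction and their side of the threshold, 13 crossed it upward (9 for TCP1, 4 for CCT4, all R4VPL3-1 against DMSO), and 26 changed sign, all in comparisons where the gene was not called. The count of members higher with R4VPL3-1 against DMSO, 1 in the report, became 2 with a mean of at least 50, limma's robust option or the replicate block, 3 with TMM, upper-quartile scaling, edgeR or DESeq2, and 1 to 2 when a library was left out (2 without VHL-r replicate 1 or R4VPL3-1 replicate 3). The fold between the highest and lowest CCT gene per kilobase, 2.23 with DMSO, became 2.05 with joined exon lengths. Scaling moved the median of all genes by less than 0.1 on the log2 scale. For R4VPL3-1 against DMSO this median went from -0.0063 to 0.0032 with TMM and to 0.0114 with upper-quartile scaling.

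For VHL-r against DMSO, HSPD1 was -0.0034 and became 0.00045 with TMM, 0.0048 with upper-quartile scaling and 0.00027 with edgeR. Leaving out 1 library gave log2 fold changes from -0.0060 to 0.017 for TCP1, -0.0054 to 0.030 for CCT2, -0.0046 to 0.039 for CCT6A, -0.053 to 0.018 for CCT7, -0.024 to 0.011 for HSPD1 (VHL-r against DMSO), -0.016 to 0.027 for CCT7, -0.025 to 0.026 for CCT8, -0.099 to 0.14 for HSPE1 (R4VPL3-1 against DMSO) and -0.0067 to 0.024 for CCT2, -0.014 to 0.023 for CCT5, -0.015 to 0.056 for CCT7 (R4VPL3-1 against VHL-r). Without a sign change, HSPE1 ranged from 0.11 to 0.35 (VHL-r against DMSO) and from -0.26 to -0.11 (R4VPL3-1 against VHL-r). The cause of these changes was not tested.

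Over the whole table, the genes called for R4VPL3-1 against VHL-r, 174 higher and 111 lower, were 113 and 69 without R4VPL3-1 replicate 1, and 68 were lower without VHL-r replicate 2. Same-numbered libraries correlated by -0.0056 to 0.12 in their deviations from the group means, with 2 of 9 pairs over 0.1, so the numbers were not taken to pair the libraries, although 6 of 9 libraries correlated best with their own number. Under the replicate block, TCP1 against DMSO passed the threshold (limma adjusted p = 0.0455) and no other member's call changed. Over the whole table, this block raised the calls in each comparison and direction. With VHL-r against DMSO, 1568 higher and 1448 lower became 1767 and 1684. With R4VPL3-1 against DMSO, 1995 and 1797 became 2187 and 2054, and against VHL-r, 174 and 111 became 228 and 161. Depth limits HSPE1 and HSPE1-MOB4, and also other low genes such as TSACC (mean of 20 normalized counts over all libraries) and CCT6B (17.7). Counting error is small for the other members.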
